A study of Homo sapiens with 2 samples.

Results

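The H3K4 methyltransferase complexes were described by 10 genes, chosen by name from 60664 genes in the files. Of these, 6 encode the catalytic subunits (KMT2A, KMT2B, KMT2C, KMT2D, SETD1A and SETD1B) and 4 the core subunits that every one of the complexes shares (WDR5, RBBP5, ASH2L and DPY30). RNA was measured by RNA-seq in 2 libraries of HEK293T, a human line made from embryonic kidney cells that carries the SV40 large T antigen. Both libraries were labelled untreated and wild type, so there was 1 group, no contrast between conditions and no test between groups. The title of replicate 2 names HEK293T, while its cell line and source entries read HEK294T. Since the labels name no separate cultures, the replicate spread given here may be a technical one. In bulk RNA, fewer cells with a transcript and less of it in each cell cannot be told apart.

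Methylation of lysine 4 of histone H3 marks active promoters in its trimethylated form and enhancers in its monomethylated form. Each complex holds 1 catalytic subunit with a SET domain, which transfers the methyl group but is weak alone. WDR5, RBBP5, ASH2L and DPY30 together form the core known as WRAD, which binds near the SET domain and raises its activity. SETD1A and SETD1B place most of the trimethyl mark. KMT2A and KMT2B act at selected promoters, among them those of HOX genes, and KMT2C and KMT2D place the monomethyl mark at enhancers. KMT2A is rearranged in acute leukaemias and KMT2D is mutated in Kabuki syndrome.

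A feature that ties the catalytic subunits to the shared core is the Win motif, a short stretch before the SET domain that docks in WDR5. The coding DNA of this stretch is shown for all 6 catalytic genes, because they have the motif in common although their levels differ. It was read 5′ to 3′ on the coding strand from the longest coding transcript of each gene in GENCODE 29 (GRCh38), with the 12 bases of the motif's centre in capitals.
KMT2A: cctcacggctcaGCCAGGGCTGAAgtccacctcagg
KMT2B: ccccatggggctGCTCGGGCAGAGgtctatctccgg
KMT2C: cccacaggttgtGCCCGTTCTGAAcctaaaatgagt
KMT2D: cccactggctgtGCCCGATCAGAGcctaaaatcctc
SETD1A: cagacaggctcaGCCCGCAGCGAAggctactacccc
SETD1B: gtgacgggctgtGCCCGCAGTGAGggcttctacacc

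The motif, searched in frame as codons for alanine, arginine, alanine or serine, and glutamate in a row, was found in the coding sequence of 6 of 6 catalytic genes, 1 time in each, and in none of the 4 shared ones. It began between 199 codons (KMT2D) and 220 codons (SETD1B) before the end of the coding sequence. In KMT2A an intron split the window between exons 32 and 33 of 36, at chr11:118519758-118519957 on the plus strand. In KMT2B it was split between exons 33 and 34 of 37, at chr19:35737229-35737636 on the plus strand. In the other 4 genes the window lay within 1 exon. It lay at chr7:152145179-152145214 on the minus strand in exon 54 of 59 for KMT2C, and at chr12:49024592-49024627 on the minus strand in exon 50 of 54 for KMT2D. For SETD1A it lay at chr16:30980544-30980579 in exon 15 of 19, and for SETD1B at chr12:121825256-121825291 in exon 14 of 18, both on the plus strand.

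The coding ends of the 6 catalytic genes fell into 3 pairs of paralogues. Over the last 130 codons, SETD1A and SETD1B were 82.8% identical in DNA, KMT2A and KMT2B 80.8%, and KMT2C and KMT2D 76.9%. The other 12 pairs of catalytic genes ranged between 55.1% and 64.5%. Within the 36-base windows, SETD1A and SETD1B shared 27 bases, KMT2C and KMT2D 27 and KMT2A and KMT2B 24, against 14 to 20 for the other pairs.

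All 10 genes were detected at 1 CPM (the read count scaled to a common library size) or more in both libraries, against 65.9% of the 19890 protein-coding genes. The libraries held 18011638 counts in replicate 1 and 18575058 in replicate 2. The 6 catalytic genes together had 2661 counts in replicate 1 and 2400 in replicate 2, and the 4 shared genes 4705 and 4811. All 10 took 0.0399% ± 0.00147 of the counts (SD, n = 2). Levels of different genes are compared below in TPM, which divides each count by the exonic length deposited with it before scaling to a common total. All values after ± are SDs over the 2 libraries, and confidence intervals are exact 95% binomial intervals that cover counting error only.

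SETD1A, the catalytic subunit of a complex that places the trimethyl mark, was the highest of the 6 catalytic genes by TPM in both libraries. By CPM KMT2A was above it in replicate 1. The gene (ENSG00000099381) lies on chromosome 16 of GRCh38 from 30957754 to 30984664 and had 692 counts in replicate 1 and 727 in replicate 2, or 38.4 CPM (35.6 to 41.4) and 39.1 CPM (36.3 to 42.1). Its level was 12.2 TPM in replicate 1 and 11.9 TPM in replicate 2; by its mean it exceeded 72.8% of protein-coding genes. It was the only catalytic gene above the median of detected protein-coding genes, 8.52 TPM. SETD1A made up 53.5% of the summed TPM of the 6 catalytic genes in replicate 1 and 56.6% in replicate 2.

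SETD1B, its paralogue, was among the low methyltransferase genes. The gene (ENSG00000139718) lies on chromosome 12 from 121804009 to 121832656 and had 145 and 97 counts, the fewest of the 10 genes, which gave 8.05 CPM (6.79 to 9.47) and 5.22 CPM (4.23 to 6.37). Its level was 1.94 TPM in replicate 1 and 1.21 TPM in replicate 2. SETD1A thus stood 6.26-fold above SETD1B in replicate 1 and 9.83-fold in replicate 2 by TPM, with 6.06-fold and 9.51-fold when the longest coding transcript set the length.

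KMT2A and KMT2B, the MLL1 and MLL2 genes, followed SETD1A. KMT2B (ENSG00000272333), on chromosome 19 from 35717973 to 35738878, had 317 counts (17.6 CPM, 3.47 TPM) in replicate 1 and 397 counts (21.4 CPM, 4.04 TPM) in replicate 2. KMT2A (ENSG00000118058), on chromosome 11 from 118436490 to 118526832, had 746 counts (41.4 CPM, 2.73 TPM) in replicate 1 and 553 counts (29.8 CPM, 1.88 TPM) in replicate 2. The values of this pair did not overlap in TPM, where KMT2A was lower, or in CPM, where KMT2A was higher. With the longest coding transcript as the length, KMT2A over KMT2B was 1.20 in replicate 1 and 0.709 in replicate 2, so their order by level depends on the length and the library. In KMT2A 18.9% of exonic bases also belong to other genes, mostly to AP001267.5 (ENSG00000285827) on the same strand, which had 4743 and 4874 counts. The part of these shared bases in the count of KMT2A was not tested.

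KMT2C and KMT2D, the MLL3 and MLL4 genes, were low by TPM. KMT2D (ENSG00000167548), on chromosome 12 from 49018978 to 49060794, had 322 counts (17.9 CPM, 1.46 TPM) in replicate 1 and 330 counts (17.8 CPM, 1.39 TPM) in replicate 2. It shares 661 exonic bases with ENSG00000288710 on the same strand, which had 875 and 1001 counts. A further 258 are shared with DDN-AS1 on the opposite strand, which had 213 and 252. The part of these shared bases in the count of KMT2D was not tested. KMT2C (ENSG00000055609), on chromosome 7 from 152134922 to 152436644, had 439 counts (24.4 CPM, 0.944 TPM) in replicate 1 and 296 counts (15.9 CPM, 0.591 TPM) in replicate 2. KMT2C was the lowest of the 10 genes by TPM in both libraries and the only one under 1 TPM. Its deposited exonic length is 53322 bases, against 16862 for its longest coding transcript, and 0.0201% of protein-coding genes have a greater exonic length. KMT2D over KMT2C was 1.55 and 2.35 by TPM, but 0.637 and 0.968 with the longest coding transcript, so the order of this pair turned round with the length.

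KMT2C also has near-identical copies elsewhere in the genome. Stretches of its longest coding transcript matched transcripts of 8 genes at other places at 95% identity or more over 100 bases or more, and together these covered 15.4% of it. BAGE2, annotated as a pseudogene on chromosome 21, matched 2592 bases at up to 98.4% identity. The 8 genes together had 3 counts in each library. A further match of 238 bases is FABP5P3, which lies within exons of KMT2C on the opposite strand and had 6 and 7 counts. Reads from such stretches can align to more than 1 place, and how they were counted is not given in the sources used here, so the value of KMT2C is uncertain.

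**Figure D1:**
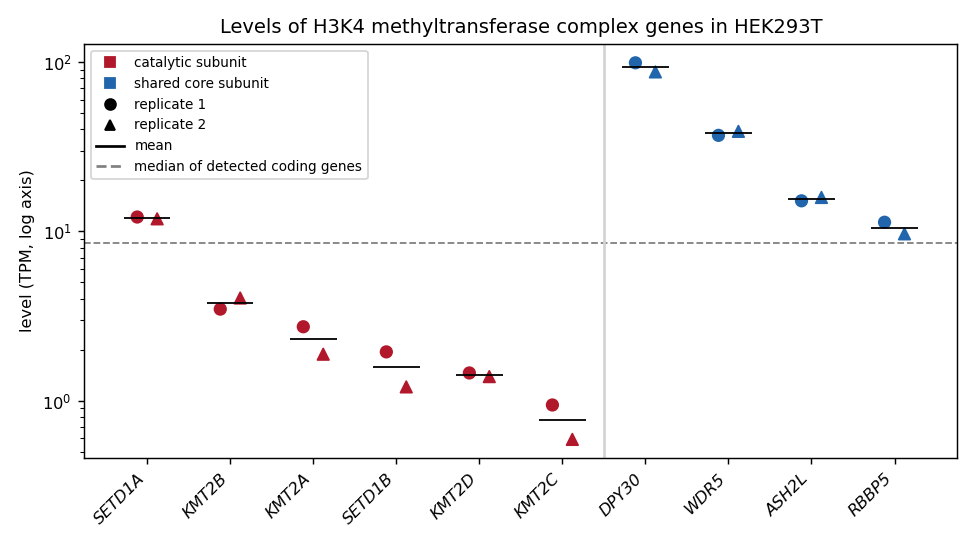
Level of each gene in each library in TPM on a log axis, with catalytic subunits in red at the left and shared core subunits in blue at the right. Circles are replicate 1, triangles replicate 2, black bars their mean and the dashed line the median of detected protein-coding genes (8.52 TPM): SETD1A stands alone among the red genes above the dashed line, and all 4 blue genes lie above it.

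The shared core genes all lay above the median of detected protein-coding genes by TPM, over a range of levels. DPY30, the smallest subunit, which docks on ASH2L as a dimer, was highest with 2352 counts (131 CPM, 99.0 TPM) in replicate 1 and 2238 counts (120.5 CPM, 87.4 TPM) in replicate 2. The gene (ENSG00000162961) lies on chromosome 2 and its deposited exons run from 31867809 to 32039805. They share 50.8% of their bases with MEMO1 on the same strand, which had 374 and 391 counts. Among 523 pairs with a gene lying wholly inside exons of an opposite-strand gene, the inner gene exceeded the outer one in 0 pairs of replicate 1 and equalled it in 15, as when a read is given to every gene it overlaps. Under that counting at most 15.9% of the DPY30 counts in replicate 1 and 17.5% in replicate 2 could come from shared bases. Taking these counts away while the full length is kept gives a floor for DPY30 of 83.2 TPM and 72.2 TPM. A processed pseudogene on chromosome 12 matched 141 bases of DPY30 and had 1 count in replicate 1 and 0 in replicate 2.

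WDR5, the propeller-shaped scaffold that holds the Win motif, was the second highest. The gene (ENSG00000196363) lies on chromosome 9 from 134135365 to 134159968 and had 1170 counts (65.0 CPM, 36.9 TPM) in replicate 1 and 1330 counts (71.6 CPM, 38.9 TPM) in replicate 2. ASH2L, which with RBBP5 makes the direct contact that stimulates the SET domain, had 748 counts (41.5 CPM, 15.2 TPM) and 843 counts (45.4 CPM, 15.9 TPM) and lies, as ENSG00000129691, on chromosome 8 from 38105493 to 38144076. RBBP5 (ENSG00000117222), on chromosome 1 from 205086142 to 205122015, was lowest of the core with 435 counts (24.2 CPM, 11.3 TPM) and 400 counts (21.5 CPM, 9.67 TPM). The ranges of these 4 genes over the libraries did not overlap in TPM or CPM.

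By TPM the order from high to low was DPY30, WDR5, ASH2L, SETD1A, RBBP5, KMT2B, KMT2A, SETD1B, KMT2D and KMT2C. SETD1A stood 1.14-fold above RBBP5 (10.5 ± 1.17 TPM) by the means, and was the 1 catalytic gene within the range of the core. Of the 9 steps between neighbours in the order, 2 lay within the spread between the libraries, those from KMT2A (2.31 ± 0.603 TPM) to SETD1B (1.57 ± 0.520 TPM) and from SETD1B to KMT2D (1.42 ± 0.0499 TPM). The libraries had the same order apart from SETD1B and KMT2D, which changed places.

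As a group, the methyltransferase genes stood below the core they share. The median of the 6 catalytic genes was 2.34 TPM in replicate 1 and 1.63 TPM in replicate 2, and that of the 4 shared genes was 26.0 and 27.4 TPM. On the scale of log2(TPM + 0.1) the median of the catalytic genes minus that of the shared genes was -3.30 in replicate 1 and -3.86 in replicate 2, a difference of -3.60 ± 0.395 from the mean levels. The catalytic gene was the lower one in 23 of the 24 pairs of a catalytic with a shared gene, in both libraries, with SETD1A and RBBP5 as the exception. By TPM, 1 of 6 catalytic genes and 4 of 4 shared genes lay above the median of detected protein-coding genes. By mean CPM, where that median was 23.3, KMT2A (35.6) and SETD1A (38.8) lay above it and RBBP5 (22.8) below it. No test was made of the difference between catalytic and shared genes, since the genes are not replicates of a condition.

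The catalytic genes were lower by less where no correction for length was made. In CPM, which has none, the catalytic median was 21.1 in replicate 1 and 19.6 in replicate 2, and the shared median 53.2 and 58.5. The difference of the medians was then -1.45 log2. All 6 catalytic genes have more exonic bases than the median detected protein-coding gene (5196.5 bases), and 1 of the 4 shared genes does, ASH2L with 5659. KMT2A has 31279 exonic bases, KMT2D 25311 and KMT2B 10461, while DPY30 has 2725, of which its longest coding transcript uses 708. With the longest coding transcript as the length, the difference of the medians was -3.38 log2 and DPY30 stood at 249.5 ± 20.5 TPM. The cDNA was primed with oligo(dT), and any loss of the far ends of the longest transcripts was not tested, since the files give 1 count per gene.

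**Figure D2:**
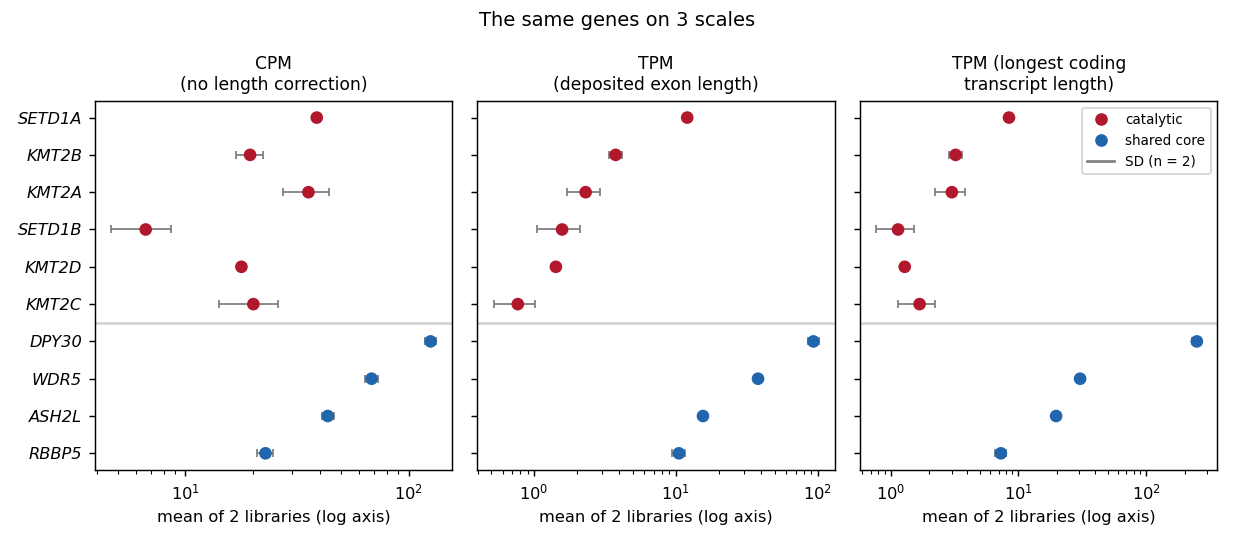
Mean of the 2 libraries for each gene in CPM (left), in TPM with the deposited exonic length (middle) and in TPM where the longest coding transcript sets the length (right), all on log axes, with catalytic genes in red above shared genes in blue and the SD (n = 2) as grey bars. DPY30 is highest and RBBP5 lowest of the core on all 3 scales, while KMT2C is the lowest of the 10 genes in the middle panel alone.

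If each complex used 1 catalytic subunit, the summed level of the catalytic genes can be set beside each core gene. The 6 catalytic genes summed to 22.7 TPM in replicate 1 and 21.0 TPM in replicate 2. By the means this sum was 2.08 times the level of RBBP5 and 1.41 times that of ASH2L, but 0.576 times that of WDR5 and 0.234 times that of DPY30. With the longest coding transcript as the length, it was 2.53 and 2.63 times RBBP5 in replicates 1 and 2 and 1.03 and 0.877 times ASH2L, so the place of ASH2L relative to the sum depends on the length. By the means it was then 0.618 times WDR5 and 0.0754 times DPY30. These are levels of RNA, and protein was not measured here.

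Upstream sequence was compared for the members that the RefSeq promoter table (GRCh38.p14) holds, 7 of 10, with 10 windows of 250 bases before the transcript start, 4 of them of WDR5. A GC box, GGGCGG on either strand and a known binding site of SP1, was present in 8 windows of 6 members, against 42.6% of all 35116 windows in the table. The same windows were searched on both strands for CCGGAA, the core of ETS factor sites, which 2 windows (KMT2A and 1 of WDR5) held against 14.5% of all windows. TATAAA was in 0 of the 10 windows, against 10.7% of all. The ratio of observed to expected CpG was above the median of all windows (0.558) in 8 of the 10 windows. A match is a description of the letters and says nothing of binding.

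The windows of SETD1A, KMT2C and RBBP5 are shown since they are the highest and lowest catalytic gene and the core gene whose level lay nearest SETD1A. They are read 5′ to 3′ on the strand of the gene, with GC boxes on either strand in capitals. The window of SETD1A lies at chr16:30957504-30957753 on the plus strand and holds 4 GC boxes at 65.2% G and C. That of KMT2C lies at chr7:152436004-152436253 on the minus strand and holds 15, some overlapping, at 92.0% G and C. That of RBBP5 lies at chr1:205121979-205122228 on the minus strand and holds 0 at 46.8% G and C.
SETD1A: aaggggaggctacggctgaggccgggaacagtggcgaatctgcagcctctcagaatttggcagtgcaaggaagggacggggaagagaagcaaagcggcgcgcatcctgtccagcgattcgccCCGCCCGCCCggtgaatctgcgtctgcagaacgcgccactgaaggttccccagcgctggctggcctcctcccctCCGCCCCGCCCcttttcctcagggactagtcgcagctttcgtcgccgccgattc
KMT2C: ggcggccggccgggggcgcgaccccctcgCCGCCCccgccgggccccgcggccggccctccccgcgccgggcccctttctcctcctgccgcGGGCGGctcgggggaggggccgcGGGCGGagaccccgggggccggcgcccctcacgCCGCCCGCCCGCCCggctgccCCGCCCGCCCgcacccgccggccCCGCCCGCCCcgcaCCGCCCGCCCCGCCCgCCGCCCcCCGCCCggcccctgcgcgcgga
RBBP5: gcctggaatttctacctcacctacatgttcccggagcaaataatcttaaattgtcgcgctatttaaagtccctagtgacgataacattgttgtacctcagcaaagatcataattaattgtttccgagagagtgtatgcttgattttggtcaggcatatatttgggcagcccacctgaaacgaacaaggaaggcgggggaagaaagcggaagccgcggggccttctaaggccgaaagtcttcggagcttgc

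Genes that work with these complexes were also measured. All 13 genes linked as partners to some of the complexes were detected, against 65.9% of protein-coding genes. Their median was 9.81 TPM, above the catalytic median of 1.94 TPM and below the shared median of 26.7 TPM. PAGR1, a subunit of the KMT2C and KMT2D complexes, was highest at 91.8 TPM in replicate 1 and 88.7 TPM in replicate 2, but 48.2% of its exonic bases are shared with other genes and its value is uncertain. WDR82, which recruits the SETD1 complexes to RNA polymerase II, had 34.1 ± 2.65 TPM. KDM6A, the H3K27 demethylase of the KMT2C and KMT2D complexes, was lowest at 1.83 ± 0.402 TPM, and HCFC2 had 2.06 ± 0.667 TPM.

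RNA of the enzymes that remove the mark was also detected, for 5 of 5 genes against 65.9% of protein-coding genes, at a median of 4.53 TPM. KDM1A, or LSD1, which acts on the mono- and dimethyl marks, had 32.1 ± 0.805 TPM, and KDM5C, which acts on the trimethyl mark, 20.7 ± 1.94 TPM. KDM1B had 4.22 ± 0.415 TPM and KDM5B 2.65 ± 0.0482 TPM, the lowest of the list by TPM. With the longest coding transcript as the length, KDM5A was lowest at 3.52 TPM, with KDM1B at 4.32 TPM and KDM5B at 4.45 TPM. By CPM KDM1B had 11.7 and KDM5B 32.7. Genes of proteins that bind methylated H3K4 were detected as RNA in 13 of 13 cases at a median of 8.77 TPM. By mean TPM the highest of these readers were ING4 at 24.3 ± 2.30 TPM and SPIN1 at 23.6 TPM in replicate 1 and 12.3 TPM in replicate 2. In replicate 2 SGF29 was above SPIN1, at 16.0 TPM. The lowest were BPTF at 4.90 ± 1.18 TPM and TAF3 at 4.28 ± 0.561 TPM. With the longest coding transcript as the length, ING2 (21.0 TPM) and SGF29 (19.7 TPM) were above SPIN1 (13.7 TPM). ING1 (4.43 TPM) was then below BPTF (4.56 TPM).

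Of 6 other SET or PR domain genes linked to H3K4, 4 were detected, against 65.9% of protein-coding genes. SMYD2 had 13.9 ± 1.40 TPM and SMYD3 7.27 ± 0.661 TPM. PRDM9, which places the mark in meiosis, had 2 and 1 counts. SMYD1, a gene of heart and skeletal muscle, had 0 counts in both libraries, which allows up to 0.167 CPM in replicate 1 and 0.162 CPM in replicate 2 at 3 counts.

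**Figure D3:**
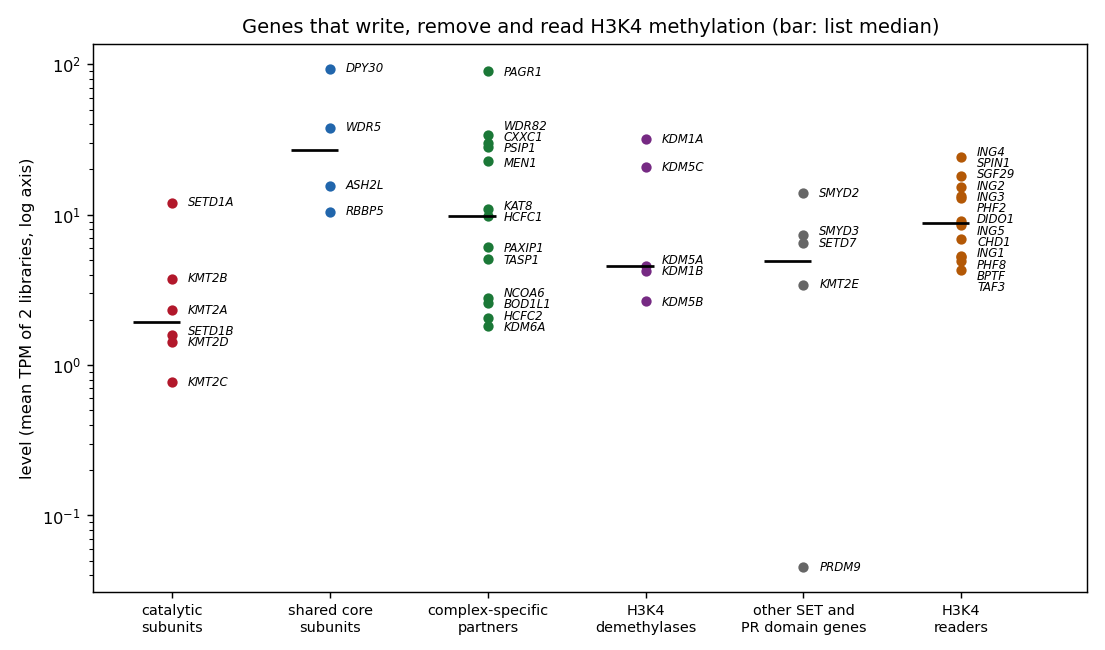
Mean TPM of the 2 libraries on a log axis for the catalytic subunits, the shared core subunits and 4 lists of related genes, with the median of each list as a black bar. The catalytic median (1.94 TPM) is the lowest of the 6 bars and the shared core median (26.7 TPM) the highest, and SMYD1, at 0 counts, is not drawn. By CPM, not drawn, the catalytic median was 19.8 and that of the other SET and PR domain genes was lower, at 19.0.

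Between the libraries, 3 catalytic genes were lower in replicate 2 and no member passed 1 log2. The log2 ratio of replicate 2 over replicate 1, scaled with edgeR's TMM factors, was -0.58 for SETD1B, -0.58 for KMT2C and -0.44 for KMT2A, and 0.31 for KMT2B. The counting intervals were -0.98 to -0.21 for SETD1B, -0.80 to -0.37 for KMT2C, -0.61 to -0.29 for KMT2A and 0.09 to 0.53 for KMT2B. KMT2D (0.02) and SETD1A (0.06) lay within counting error. The shared genes lay between -0.13 and 0.17, with WDR5 at 0.17, ASH2L at 0.16, DPY30 at -0.09 and RBBP5 at -0.13. The intervals of 7 of the 10 genes excluded 0, against 46.9% of the 14704 genes averaging at least 50 counts, and cover counting error alone.

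The members' ratios lay within the range of most genes. Of the 10 members 0 were past 1 log2 in either direction, while among those 14704 genes 1.92% were lower and 0.143% higher by that much. All 10 members lay between the 5th and 95th percentiles of those genes (-0.66 and 0.42 log2). Ratios between the libraries also moved with the GC content of transcripts, with a median of -0.44 log2 in the lowest of 20 GC classes and 0.11 log2 in the class that holds SETD1B. Centred on genes of like GC content, SETD1B stood at -0.70, KMT2C at -0.56, KMT2A at -0.45 and KMT2B at 0.21, while KMT2D, SETD1A and DPY30 changed sign. No p-value is given for these ratios, since each rests on a single pair of libraries.

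**Figure D4:**
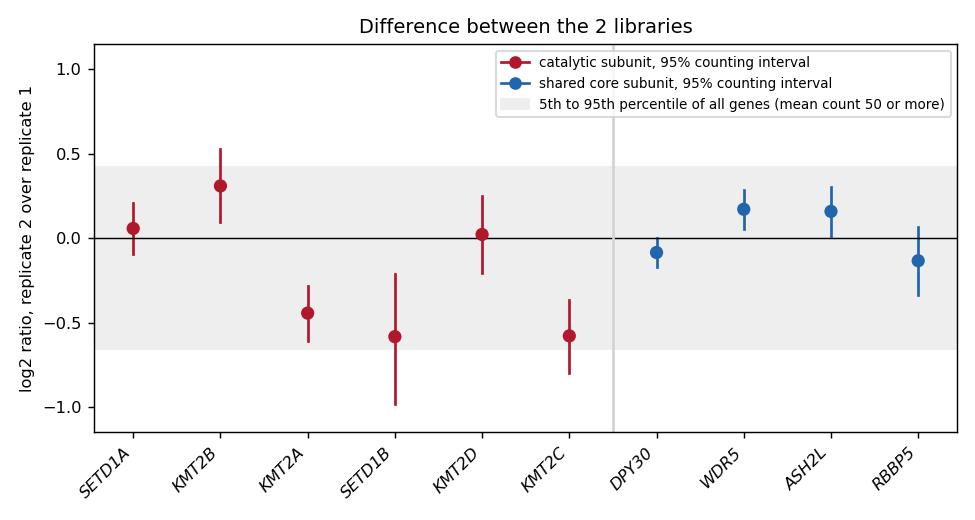
Log2 ratio of replicate 2 over replicate 1 for each gene, with its 95% counting interval, catalytic subunits in red at the left and shared core subunits in blue at the right. The grey band spans the 5th to the 95th percentile of genes averaging at least 50 counts, and all 10 points lie within it.

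The label of the cells was set against markers of cell types. Of 8 nephron progenitor genes 7 were detected, against 65.9% of protein-coding genes. HOXD11 had 46.9 ± 2.05 TPM and SIX2 22.5 ± 1.64 TPM, while PAX2, under 1 CPM in replicate 2, had 23 and 15 counts and WT1 43 and 34. HOXD11 shares 21.4% of its exonic bases with HOXD10 on the same strand, which had 1236 and 1191 counts. Neurofilament genes were detected in 3 of 4 cases, with INA at 28.3 ± 1.07 TPM, NEFM at 20.3 ± 1.71 TPM and NEFL at 15.7 ± 2.96 TPM. NEFH had 1 and 2 counts, and NEFM shares 26.4% of its exonic bases with a gene on the opposite strand, which had 212 and 226 counts. INA, with 823 and 840 counts, shares 13.9% with NT5C2 on the opposite strand, which had 602 and 663. The part of these shared bases in the counts was not tested. KRT18 and KRT8 of simple epithelia had 24.8 ± 2.13 and 21.4 ± 1.69 TPM, EPCAM 3.93 ± 0.693 TPM and CDH1 0.674 ± 0.0610 TPM. KRT18 and KRT8 lie on opposite strands and share 525 exonic bases, 17.1% of those of KRT18 and 7.63% of those of KRT8. The part of these bases in their counts was not tested either. The 7 markers of blood, endothelium, fibroblasts and liver reported here had 3 counts or fewer in both libraries. Of these, CD3E, COL1A2 and DCN had 0 in both, PTPRC 0 and 1, ALB 1 and 0, CDH5 1 and 2 and PECAM1 3 and 0. Over 21018 genes the 2 libraries were further apart than sampling noise gives (chi-square per degree of freedom 12.7), so they were kept as separate samples.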

How the data were processed

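RNA-seq was made from TRIzol-extracted, DNase-treated RNA with oligo(dT)-primed cDNA, per the labels' protocols. The authors deposited 1 table of unnormalised whole-number counts for each library, by Ensembl gene ID, in the column layout of featureCounts per the file headers. Build GRCh38 and the tools featureCounts 2.0.3, Trim Galore 0.6.7 and bcl2fastq 2.17 appear in the submitters' processing notes. The aligner and annotation release, like the strand, overlap and multi-mapping options, were not given in the sources used here for these files. The merged exonic length per gene is deposited beside the counts.

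Symbols matched 60463 of 60664 IDs. CPM and TPM were computed here with Python 3.11.15, and log2 ratios with edgeR 4.0.16 (TMM, prior count 2) in R 4.3.3, with DESeq2 1.42.0 size factors as an alternative. Gene types, transcript lengths and GC content came from GENCODE 29 on the same build, near-identical copies from BLAST+ 2.17.0, and promoters from RefSeq. The ratio step was tested on simulated data with known ratios. The members and the related gene lists were chosen with earlier results of these data known, and all 10 members were named. From each related list the 2 highest and 2 lowest genes and those under 1 CPM were named, and 1 marker of the other cell types is not reported here. Reads here carry no molecular identifiers, so they are not independent molecules, and intervals and floors cover counting error only. The depths, 18011638 and 18575058 counts, give SETD1B, the least counted member, an interval of 6.79 to 9.47 CPM in replicate 1. Alternatives changed the length, scale, pseudocount, filter, normalisation and libraries used.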

Additional observations from a re-analysis of the deposited data

How the results depend on the processing

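The catalytic median, or mean where means were compared (-3.46 log2), stayed below that of the shared genes under all 9 alternatives tried. The difference lay between -3.86 and -1.45 log2, against -3.60 as reported. It was -1.45 with CPM, -3.12 with a pseudocount of 1, and -2.96 without DPY30. DPY30 is also the only member with 25% or more of its exonic bases shared, so leaving out such members gave the same comparison. The difference was -3.30 without replicate 2 and -3.86 without replicate 1. The ratio of summed levels, catalytic over shared, was 0.139 and depends more on single choices. It was 0.0613 with the longest coding transcript as the length, 0.532 with CPM and 0.342 without DPY30, with 0.138 to 0.140 when either library was left out. The catalytic gene was lower in 22 of 24 pairs with CPM. All 10 members were detected at 5 CPM and at 0.5 CPM in both libraries, and 9 at 1 TPM, with KMT2C under it. The TPM of 9 members moved beyond the spread between libraries with the other length. The TPM of all 10 did so when the total was taken over protein-coding genes outside the mitochondrial genome, a change of scale common to all genes. The number of members past 1 log2 between the libraries was 0 with DESeq2 size factors, library totals, a prior count of 0.5, GC centring and either filter on low counts. GC centring shifted ratios most, by -0.11 to 0.16 log2, and moved that of DPY30 outside its counting interval. Precision is limited by depth for SETD1B (145 and 97 counts). No paired analysis was possible because the labels give 1 group.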
